A study of Mus musculus with 6 samples.

Results

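The sirtuins are a family of 7 genes, Sirt1 to Sirt7, whose proteins remove acetyl and related acyl groups from lysines. The members were taken by symbol from a table of 22183 mouse kidney genes; each of the 7 symbols stood in 1 row, and all 7 were among the 14432 genes that passed the filter on low counts. Messenger RNA was sequenced from whole kidney in 2 groups of 3 libraries. The control group had received the empty plasmid pcDNA3, and the Wnt1 group a plasmid meant to overexpress Wnt1, a secreted protein that activates beta-catenin signalling. All libraries carry 1 batch label, and the labels name no strain, age, sex, injury procedure, time or promoter. Nothing in the labels says that the libraries came from separate animals, so the p-values here reflect only how far these samples differ from each other, a spread that may be technical.

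Every sirtuin uses NAD+ as a co-substrate, so the family couples protein acylation to the cell's NAD+ supply. Sirt3, Sirt4 and Sirt5 proteins work mainly in mitochondria, Sirt2 mainly in the cytosol, and Sirt1, Sirt6 and Sirt7 mainly in the nucleus, Sirt7 in the nucleolus. In the kidney the family is known chiefly from the proximal tubule, a segment that lives on mitochondrial oxidation, where Sirt1 and Sirt3 have been studied as protective factors in injury.

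Upstream sequences are shown because the members moved unequally, to set the DNA before their start sites side by side. They are RefSeq sequences of build GRCm38.p6, found for all 7 members, cut to stretches outside annotated UTRs except for the short Sirt3 site, and each runs 5′ to 3′ in the gene's direction. Capitals mark matches, on either strand, to a short list of letters: CACGTG (E-box), CTTTGAA and CTTTGAT (TCF/LEF, the factors that work with beta-catenin), TGACGTCA (CRE), TGACTCA (AP-1), AAGGTCA (ERR), GCGCATGCG (NRF1), CCGGAAG (ETS), TGTTTAC (FOXO) and GGGCGG (SP1). The first line is a 30-base stretch at chr7:140882376-140882405, minus strand, in the first exon of Psmd13, the gene that faces Sirt3. The others lie at chr13:43365285-43365495 (plus strand), chr10:63339051-63339285 (minus strand) and chr11:120625015-120625116 (minus strand).
Sirt3: gtgctcgctcaCTTCCGGcaccgcgggcgc
Sirt5: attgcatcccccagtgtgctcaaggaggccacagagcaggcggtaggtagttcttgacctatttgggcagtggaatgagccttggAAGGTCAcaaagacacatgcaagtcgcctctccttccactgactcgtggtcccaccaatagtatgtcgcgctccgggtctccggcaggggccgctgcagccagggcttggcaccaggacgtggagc
Sirt1: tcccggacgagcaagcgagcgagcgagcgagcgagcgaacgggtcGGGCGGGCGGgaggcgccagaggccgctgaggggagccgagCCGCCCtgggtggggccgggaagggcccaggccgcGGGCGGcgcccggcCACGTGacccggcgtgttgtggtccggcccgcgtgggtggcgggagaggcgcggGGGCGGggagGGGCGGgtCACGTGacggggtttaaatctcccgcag
Sirt7: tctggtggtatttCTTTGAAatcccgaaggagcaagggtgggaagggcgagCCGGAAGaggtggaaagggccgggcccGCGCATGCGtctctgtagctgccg
In the 250 bases before the start site, Sirt3 held 1 ETS match and Sirt4 held no match to any of these letters. Sirt5 held 1 ERR match, which 4.08% of 32851 windows of the same length also held, and 1 SP1 match outside the printed stretch. Sirt1 held 2 E-box matches, found at least once in 6.02% of windows, and 6 SP1 matches (32.7% of windows), of which 2 overlap. Sirt6 held 1 ETS match and an NRF1 match read on both strands, and Sirt2 held 1 SP1 match. In the windows used, Sirt7 was the only member with a TCF/LEF match. That match was CTTTGAA, in 4.46% of windows, and the other TCF/LEF letters, CTTTGAT, were in 3.21%. Sirt7 also held 1 NRF1, 1 ETS (6.91% of windows) and 1 SP1 match. The RefSeq start of Sirt7 is at 120625014, and the stretch printed before it lies inside the GENCODE model of Sirt7, which reaches 120625240. Sirt3 and Sirt6 had 2 RefSeq windows each, of which that nearest the GENCODE start was used. A match describes the letters only.

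Summed expected counts were 23585020 to 27218085 per library. The Wnt1 gene had 0, 0 and 0 counts in control and 0, 1 and 0 in Wnt1 replicates 1, 2 and 3, so the plasmid's gene did not check the labels; the upper limit for a library with no count, taken as 3 counts, corresponds to 0.0951 to 0.138 CPM per library. Markers of the proximal tubule, the labelled organ's most abundant cell type, were present in all libraries. Injury markers were far higher with Wnt1: 8 of 8 were called higher, against 22.4% of all tested genes. Havcr1 rose by 7.43 ± 0.31 on the log2 scale (edgeR adjusted p = 1.66e-05).

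Levels were first compared between members per transcript length, in FPKM as deposited. In control kidneys Sirt3 was the most abundant sirtuin, at 59.5, 53.2 and 63.2 FPKM in replicates 1, 2 and 3 (58.6 ± 5.03; mean ± SD, n = 3). Sirt2 followed at 48.0 ± 2.19 FPKM, Sirt7 at 24.8 ± 3.57, Sirt5 at 12.1 ± 0.343 and Sirt4 at 4.80 ± 0.351. Each of these was above the next in all 3 control libraries, with no overlap of ranges. At the bottom Sirt1 (3.42 ± 0.837 FPKM) and Sirt6 (3.33 ± 0.288) overlapped, so their order was not resolved.

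The order was different with the Wnt1 plasmid. Sirt2 stood first at 50.2 ± 3.26 FPKM (n = 3), above Sirt3 in all 3 libraries, and Sirt3 stood at 28.9 ± 5.80. The ranges of Sirt3 and Sirt7 (23.2 ± 4.68 FPKM) overlapped, although Sirt3 was above Sirt7 in each of the 3 libraries. Sirt5 followed at 11.4 ± 0.0330 FPKM. The 3 lowest members were Sirt6 (5.70 ± 0.825 FPKM), Sirt1 (4.76 ± 1.53) and Sirt4 (3.59 ± 0.395), and neighbours among them overlapped. Sirt3 made up 37.8% ± 0.976 of all sirtuin FPKM in control and 22.5% ± 3.11 with Wnt1, while the share of Sirt2 was 31.0% ± 0.594 and 39.4% ± 2.73.

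**Figure D1:**
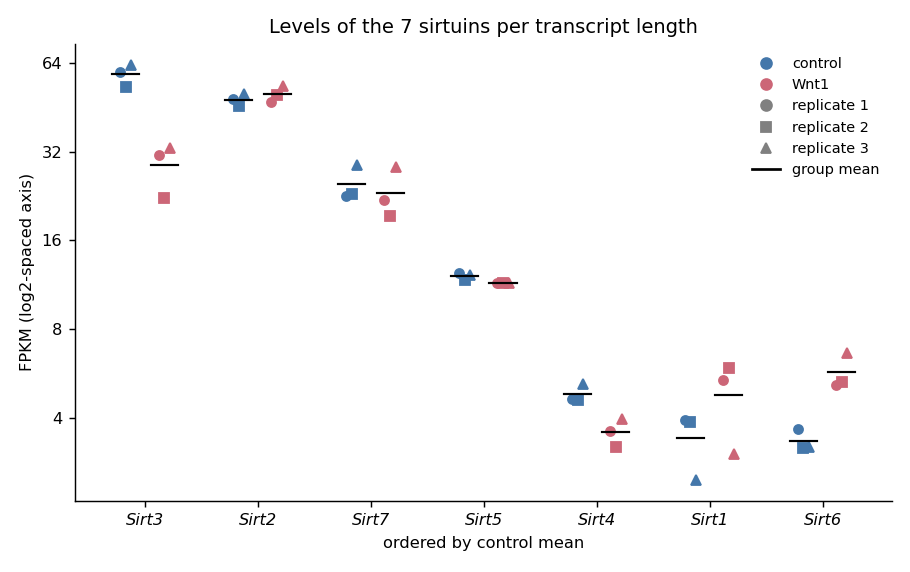
FPKM of each sirtuin in each library (vertical axis, log2-spaced), ordered by control mean, with control in blue, Wnt1 in red, a symbol shape for each replicate and a black line at the group mean. Sirt3 is highest in control at 58.6 FPKM and is at 28.9 with Wnt1, below Sirt2 at 50.2.

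Changes between groups were then tested on counts scaled by library total and a TMM factor for composition (CPM). The 3 sirtuins of the mitochondrion fell with the Wnt1 plasmid: Sirt3 to 0.360 of the control level, Sirt4 to 0.559 and Sirt5 to 0.723 (fitted folds). No sirtuin was called higher, and Sirt1, Sirt2, Sirt6 and Sirt7 did not pass an adjusted p of 0.05. Calls are from edgeR's quasi-likelihood test with Benjamini-Hochberg adjustment over all 14432 genes. Among all tested genes 41.1% were called, 22.4% higher and 18.7% lower, so 3 calls among 7 members is close to the share over all genes. Sirt3 was the 1 member both called and at least 2-fold changed, which in the lower direction held for 7.48% of tested genes (15.4% in the higher one). The median log2 fold change was -0.38 over the 7 members and 0.05 over all tested genes.

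Sirt3 encodes the main deacetylase of the mitochondrial matrix. Its levels were 78.8, 72.4 and 83.7 CPM in control replicates 1 to 3 and 29.8, 20.8 and 34.1 CPM in Wnt1 replicates 1 to 3. Every Wnt1 library lay far below every control library. The log2 fold change was -1.47 ± 0.19 (SE; edgeR adjusted p = 0.000691), at the 3.56 percentile of tested genes. It was called lower under all 17 alternatives tried, at -1.63 to -1.01 (adjusted p 2.56e-11 to 0.00423).

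Sirt4, which acts on glutamate dehydrogenase and malonyl-CoA decarboxylase, was a low-count member. It had 9.43, 9.48 and 11.001 CPM in control and 5.58, 4.78 and 6.37 CPM with Wnt1, from 205, 214 and 241 and from 176, 135 and 168 counts. The groups did not overlap, and the log2 fold change was -0.84 ± 0.18 (edgeR adjusted p = 0.00721). With library totals as the scale it was -0.42 (adjusted p = 0.0624), and with limma on log2(FPKM + 1) it was -0.34 (adjusted p = 0.0566), neither of which is a call.

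Sirt5, which removes succinyl, malonyl and glutaryl groups, changed least of the mitochondrial members. Its levels were 20.8, 21.6 and 20.9 CPM in control and 15.98, 14.2 and 15.6 CPM with Wnt1, again with no overlap. The log2 fold change was -0.47 ± 0.13 (edgeR adjusted p = 0.0226). The call was lost when any single library except Wnt1 replicate 3 was left out. The adjusted p was 0.0896, 0.113 and 0.0884 without control replicates 1, 2 and 3, at log2 fold changes of -0.42, -0.39 and -0.39. It was 0.0529 and 0.0828 without Wnt1 replicates 1 and 2, at -0.50 and -0.42. With library totals the value was -0.05 (adjusted p = 0.747), and limma on log2(FPKM + 1) gave -0.08 (adjusted p = 0.529), so the call of Sirt5 held on counts scaled for composition and not on library totals or FPKM.

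Sirt2 encodes a tubulin and histone deacetylase of the cytosol. Its levels were 100.4, 96.7 and 108.1 CPM in control and 74.5, 76.5 and 87.8 CPM with Wnt1. All Wnt1 values lay below all control values, but the log2 fold change (-0.35 ± 0.12; edgeR adjusted p = 0.0527) was just over the threshold. Without control replicate 3 it was -0.22 (adjusted p = 0.192), without Wnt1 replicate 3 it was -0.43 (adjusted p = 0.00817), and DESeq2 gave -0.39 (adjusted p = 0.0341). On FPKM, and with library totals, the sign turned: limma on log2(FPKM + 1) gave 0.06 (adjusted p = 0.626) and library totals 0.06 (adjusted p = 0.621).

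Sirt1 encodes the nuclear deacetylase of p53, FOXO factors and PGC-1alpha. Its levels were 17.5, 17.4 and 11.2 CPM in control and 17.9, 19.2 and 10.4 CPM with Wnt1. Replicate 3 was the low library in both groups, and the groups overlapped. The log2 fold change was 0.04 ± 0.27 (edgeR adjusted p = 0.913), the widest error in the family. It was not called in any of the 17 alternatives, with values from -0.15 to 0.47. Without control replicate 3, Wnt1 replicate 1 or Wnt1 replicate 2 the sign turned, at -0.03, -0.06 and -0.11, without control replicates 1 or 2 or Wnt1 replicate 3 it was 0.23, 0.23 and 0.27, and without both libraries numbered 3 the value was 0.09 (adjusted p = 0.485).

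Sirt6, a chromatin deacylase that acts in DNA repair and on glycolytic genes, was the sirtuin with the highest log2 fold change. It had 7.63, 6.60 and 6.85 CPM in control and 8.18, 8.14 and 10.9 CPM with Wnt1, with no overlap. The log2 fold change was 0.37 ± 0.19 (edgeR adjusted p = 0.15). Library totals gave 0.79 (adjusted p = 0.00739), limma on log2(FPKM + 1) gave 0.63 (adjusted p = 0.00716) and a GC offset 0.37 (adjusted p = 0.0324), each a call. Without Wnt1 replicate 3 the value was 0.21 (adjusted p = 0.255), and without both libraries numbered 3 it was 0.19 (adjusted p = 0.299).

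Sirt7, a nucleolar deacylase tied to ribosomal RNA transcription, had 39.2, 40.8 and 43.2 CPM in control and 30.1, 27.4 and 37.0 CPM with Wnt1. No Wnt1 library reached the lowest control. The log2 fold change was -0.38 ± 0.15 (edgeR adjusted p = 0.0716), and without Wnt1 replicate 3 it was -0.52 (adjusted p = 0.00562). With library totals it was 0.03 (adjusted p = 0.835). In all, 6 of the 7 sirtuins, all but Sirt1, had groups that did not overlap in CPM, as did 53.5% of tested genes; 1 of the 7 was higher (28.2% of tested genes) and 5 were lower (25.3%).

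**Figure D2:**
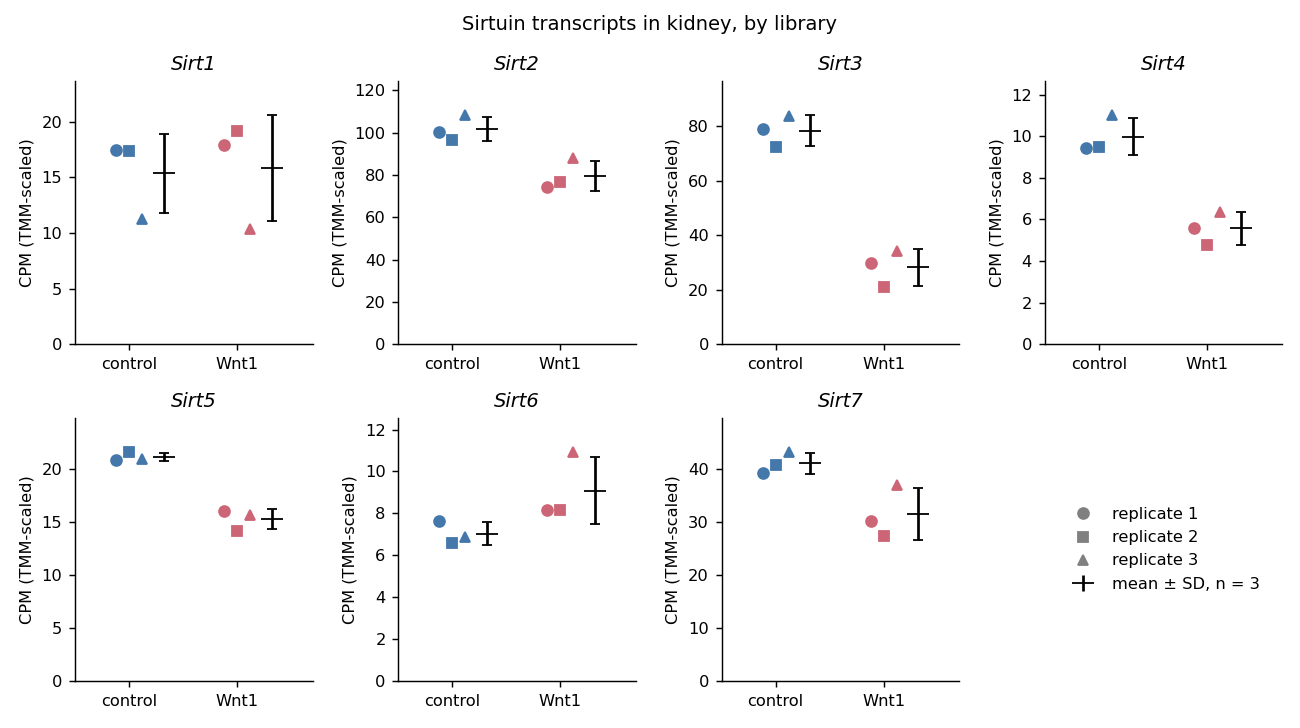
TMM-scaled CPM of the 7 sirtuins in each of the 6 libraries (symbols by replicate), with mean ± SD of 3 libraries beside each group; axes start at 0. Sirt3 shows the widest gap, 72.4 to 83.7 CPM in control against 20.8 to 34.1 with Wnt1, and Sirt1 is low in replicate 3 of both groups (11.2 and 10.4).

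The scale of the libraries moved all members together. Over all tested genes the median change was 0.05 (log2) on the TMM scale and 0.47 on library totals, because TMM factors were 0.8485 to 0.8789 in control and 1.118 to 1.195 with Wnt1. Such a change of scale shifts every gene by nearly the same amount. Measured from the median of all genes, the members were therefore bound to stay nearly in place between these 2 scales. Sirt3 was at -1.53 and -1.53, Sirt4 at -0.89 and -0.89, Sirt5 at -0.52 and -0.52, and Sirt6 at 0.32 and 0.31. Sirt2 was at -0.41 and -0.41 and Sirt7 at -0.44 and -0.44. With library totals, 1 sirtuin (Sirt6) was called higher and 1 (Sirt3) lower, against 44% and 8.92% of tested genes (52.9% in either direction). With both libraries numbered 3 left out, 5 sirtuins were called lower (Sirt2, Sirt3, Sirt4, Sirt5 and Sirt7), against 30.4% of tested genes, and 0 higher, against 32% (62.5% in either direction).

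**Figure D3:**
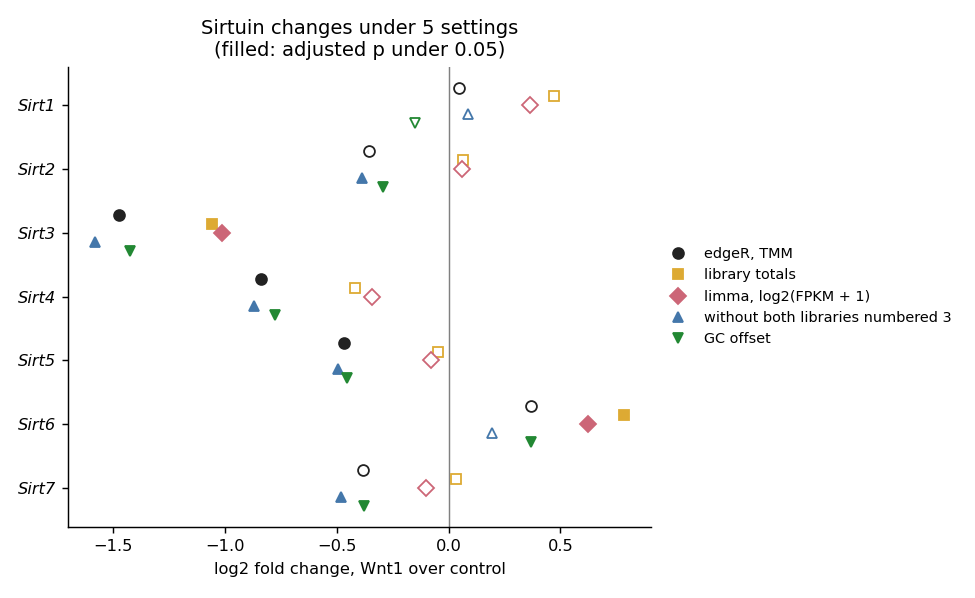
Log2 fold change, Wnt1 over control, of each sirtuin under 5 settings (symbol and colour), filled where the adjusted p was under 0.05. Sirt3 is filled and below 0 in all 5, from -1.58 to -1.01, whereas Sirt2 and Sirt7 lie close to 0 with library totals (0.06 and 0.03).

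A ratio of 2 members within a library does not depend on its scale. Counts of Sirt3 over Sirt6 were 10.3, 10.97 and 12.2 in control and 3.64, 2.56 and 3.12 with Wnt1. Sirt3 over Sirt2 was 0.785, 0.749 and 0.774 in control and 0.400, 0.272 and 0.388 with Wnt1. Both ratios were lower in every Wnt1 library than in any control. Sirt3 over Sirt6 sets the member with the lowest log2 fold change against that with the highest. Sirt3 over Sirt5 went from 3.72 ± 0.329 to 1.84 ± 0.355 and Sirt4 over Sirt5 from 0.473 ± 0.0468 to 0.365 ± 0.0376, and each was lower in every Wnt1 library than in any control. The groups overlapped for Sirt6 over Sirt1 (0.476 ± 0.120 in control and 0.644 ± 0.353 with Wnt1). They also overlapped for Sirt1 over Sirt7 (0.377 ± 0.102 and 0.525 ± 0.218). The summed FPKM of Sirt3, Sirt4 and Sirt5 over that of Sirt1, Sirt6 and Sirt7 was 2.54, 2.32 and 2.33 in control and 1.43, 1.21 and 1.27 with Wnt1. Sirt3 made up most of the upper sum (on average 58.6 of 75.6 FPKM in control and 28.9 of 43.9 with Wnt1). Sirt7, whose FPKM holds a length term described below, made up most of the lower sum (24.8 of 31.6 and 23.2 of 33.7). The ratio of sums therefore mainly sets Sirt3 against Sirt7. No p is given for these ratios, since 3 against 3 libraries cannot go below 0.1 in an exact test.

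Libraries numbered 3, titled C6 and PW5 in the labels, stood apart from the rest of their groups on the second principal component (scores -29.0 and -50.1, against 16.2 to 22.1). Of the sirtuins, Sirt1, the member poorest in GC, was clearly low in both. Sirt1, with a median GC content of 42.8% over its annotated transcripts (the 10.2 percentile of tested genes), was 0.63 lower in log2 CPM in control replicate 3 than in the mean of control replicates 1 and 2. In Wnt1 replicate 3 it was 0.83 lower. The 2893 tested genes with the lowest GC content (31.9% to 45.2%) had medians of -0.51 and -0.77. Sirt6 and Sirt7, at 59.5% and 58.4% GC, stood at 0.42 and 0.36 in Wnt1 replicate 3, where the 2877 tested genes richest in GC (from 56.2%) had a median of 0.41. In control replicate 3 they stood at -0.05 and 0.11, and those genes at a median of 0.10. Members other than Sirt1 did not keep the order of GC content. Sirt3, at 54.3% GC, stood at 0.15 in control replicate 3 and 0.45 in Wnt1 replicate 3. Sirt2, at 55.7% GC, stood at 0.13 and 0.22. Whether GC content is the source of the spread was not tested.

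**Figure D4:**
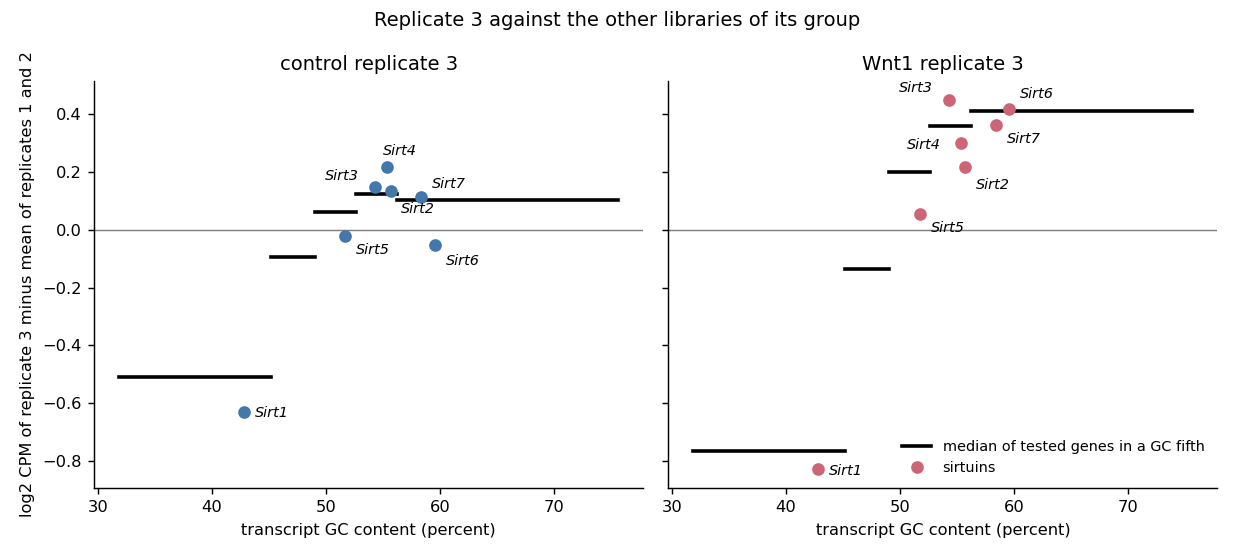
Log2 CPM of replicate 3 minus the mean of replicates 1 and 2 of its group (vertical axis) against transcript GC content, for the 7 sirtuins (points) and as the median of tested genes in each of 5 classes of GC content (bars), in control (left) and Wnt1 (right). Sirt1 lies at -0.63 and -0.83, beside medians of -0.51 and -0.77 for the genes poorest in GC.

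Counts and FPKM can part where the transcript length that the authors used differs between libraries. The length implied by count, FPKM and library total was steady for Sirt2 (1829 to 1833 bases) and Sirt4 (1794 bases). For Sirt7 it was 1527, 1540 and 1268 bases in control replicates 1 to 3 and 1596, 1689 and 1453 bases in Wnt1 replicates 1 to 3, lowest in replicate 3 of each group. For Sirt3 it ranged from 1103 to 1178 bases and for Sirt5 from 1454 to 1622 bases. Differences in FPKM of Sirt7 between libraries therefore hold a length term that counts do not.

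The position of the genes bears on how reads could be shared. In GRCm38 Sirt3 (ENSMUSG00000025486) spans 140863666 to 140882309 of chromosome 7 on the minus strand. It overlaps Psmd13, a proteasome lid gene on the other strand, by 342 bases head to head, and Ric8a by 707 bases at its other end. Neither partner followed Sirt3: Psmd13 was at 96.0 ± 9.90 and 89.2 ± 16.1 CPM (-0.11 ± 0.16; edgeR adjusted p = 0.641) and Ric8a at 37.3 ± 2.52 and 43.9 ± 6.58 (0.23 ± 0.15; adjusted p = 0.244). Sirt2 (ENSMUSG00000015149) spans 28766735 to 28788661 of the same chromosome and starts head to head with Nfkbib, whose log2 fold change was -0.11 ± 0.15 (adjusted p = 0.593).

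Sirt7 (ENSMUSG00000025138; chromosome 11, 120618372 to 120625240) shares 124 bases with Mafg on the same strand, and Mafg stood at 0.07 ± 0.14 (edgeR adjusted p = 0.733). Sirt6 (ENSMUSG00000034748; chromosome 10, 81621785 to 81627797) has a start 743 bases from that of Ankrd24, which stood at -0.36 ± 0.17 (adjusted p = 0.13). Sirt1 (ENSMUSG00000020063) spans 63319005 to 63381704 of chromosome 10 in GENCODE, although its RefSeq start is at 63339035. The far end of that model lies 739 bases from the start of Dnajc12, which fell (-2.76 ± 0.17; adjusted p = 3.53e-05). Sirt4 (ENSMUSG00000029524) spans 115478010 to 115484725 of chromosome 5, and Sirt5 (ENSMUSG00000054021) spans 43365496 to 43395203 of chromosome 13. No source used here says whether reads were counted by strand, so reads in the overlaps with Psmd13, Ric8a and Nfkbib cannot be assigned with certainty. The same holds for 13035 bases where Gm16145 lies antisense to the GENCODE model of Sirt1. Overlaps were measured on whole gene spans, introns included, so fewer exon bases may be shared. That with Gm16145 (63353853 to 63366887) lies upstream of the RefSeq start of Sirt1, and Gm16145 was not among the counted genes. The 124 bases that Sirt7 shares with Mafg on 1 strand would stay uncertain with stranded counting too.

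The other genes of the NAD+ pathway were counted as a group for supply and a group for use. Each count is read against the 22.4% of all tested genes called higher and 18.7% called lower (44% and 8.92% with library totals). Of 12 tested rows for genes that make, carry or phosphorylate NAD+ or exchange its hydride, 9 fell and 0 rose (median log2 fold change -0.77; 4 fell with library totals). They included Nadsyn1, NAD+ synthetase (-0.95 ± 0.16; edgeR adjusted p = 0.00239), Naprt, which salvages nicotinic acid (-0.82 ± 0.15; adjusted p = 0.00346), and Slc25a51, the mitochondrial NAD+ carrier (-0.57 ± 0.11; adjusted p = 0.00377). The transhydrogenase Nnt stands in 2 rows that overlap on the genome, both called lower, and its reads may be split between them. Nampt, the rate-limiting enzyme of nicotinamide salvage, was at 132.4 ± 33.0 and 120.9 ± 46.0 CPM (-0.13 ± 0.32; adjusted p = 0.775). Among 9 other NAD+ or nicotinamide users, 5 rose and 0 fell (6 and 0 with library totals), among them Cd38, an NAD+ glycohydrolase (0.98 ± 0.18; adjusted p = 0.00319), and Nnmt, which methylates nicotinamide (3.09 ± 0.32; adjusted p = 0.000244). Parp1 stood at 0.01 ± 0.13 (adjusted p = 0.978).

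Transcripts of proteins that sirtuins act on were counted by compartment. These counts too stand beside 22.4% of all tested genes called higher and 18.7% lower (44% and 8.92% with library totals). Of 20 tested genes for mitochondrial targets, 17 fell and 0 rose (median -0.75; 8 fell and 1 rose with library totals). Sod2, the superoxide dismutase deacetylated by Sirt3, was lower by a log2 value of -1.20 ± 0.14 (edgeR adjusted p = 0.000471), Idh2 by -1.30 ± 0.18 (adjusted p = 0.000983) and Acadm, a fatty acid dehydrogenase, by -1.997 ± 0.17 (adjusted p = 0.00011). Of 17 tested nuclear targets, 3 were higher and 5 lower, close to the 41.1% of all tested genes called (8 and 1 with library totals, where 44% of all genes were higher; 5 and 6 without both libraries numbered 3). Stat3 rose (1.17 ± 0.12; adjusted p = 0.000225), as did Trp53 (0.88 ± 0.15; adjusted p = 0.00285), and Foxo1 fell (-0.72 ± 0.12; adjusted p = 0.0021). Of 8 regulators of Sirt1, 3 rose and 0 fell (5 and 0 with library totals), including Hic1, a repressor of the Sirt1 gene (1.22 ± 0.22; adjusted p = 0.00331), while Ccar2, an inhibitor of the Sirt1 protein, stood at 0.00 ± 0.15 (adjusted p = 0.998).

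The zinc-dependent deacetylases, Hdac1 to Hdac11, are the other large deacetylase family and gave 2 higher and 2 lower of 11 tested (median -0.04; 4 higher and 0 lower with library totals; 5 higher and 4 lower without both libraries numbered 3). Over all tested genes 41.1% were called, 44% were higher with library totals and 62.5% were called without both libraries numbered 3, so the counts show nothing particular to the family. Hdac7 rose (0.65 ± 0.15; edgeR adjusted p = 0.00864) and Hdac5 fell (-0.56 ± 0.15; adjusted p = 0.0164). Sirt3 and Sirt4 had lower log2 fold changes than each of the 11. Of 12 acetyltransferases and related genes, 1 fell, Kat2b (-0.71 ± 0.19; adjusted p = 0.0177), and 0 rose, with a median of 0.04 (7 higher and 0 lower with library totals).

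Markers of cell types moved in the same libraries, and in bulk tissue fewer cells of a type and less RNA per cell cannot be told apart. The shares called over all tested genes were 22.4% higher and 18.7% lower. They were 44% and 8.92% with library totals, and 32% and 30.4% without both libraries numbered 3. Of 16 proximal tubule markers 15 fell and 0 rose, and their summed level was 48934 to 57704 CPM in control and 8350 to 12289 CPM with Wnt1. Of 12 macrophage markers 12 rose (228.1 to 278.7 CPM summed in control, 1851 to 2237 with Wnt1), and of 10 fibroblast and mural markers 10 rose (516.2 to 672.8 and 2129 to 3495 CPM). No marker on these 3 lists was at 0 in either group. Of 16 genes for mitochondrial proteins of several compartments 13 fell and 0 rose (median -0.80, and 7 fell with library totals). Per 1000 CPM of those 16 genes, Sirt3 was 5.82, 5.50 and 5.57 CPM in control and 4.01, 3.37 and 3.87 with Wnt1, lower in each Wnt1 library, and its log2 fold change was below that of each of the 16. Sirt4 overlapped on that measure (0.716 and 0.750 on average), and Sirt5 was higher in every Wnt1 library (1.52 and 2.07 on average). Atp5b and Atp5a1 made up 4141 and 2973 of the 13916 CPM of that sum in control. Per 1000 CPM of proximal tubule markers, Sirt3 was 1.61, 1.29 and 1.45 CPM in control and 3.08, 2.49 and 2.77 with Wnt1. Sirt4 was 0.184 and 0.556 on average, and Sirt5 0.391 and 1.54. Kap alone made up 22015 of the 54281 CPM of the tubule sum in control and 3030 of 10098 with Wnt1, so these ratios lean on 1 gene. Of the 16 tubule markers, 12 had a lower log2 fold change than Sirt3. The part of cell makeup in the fall of Sirt3 was not tested. Other lists gave 6 lower of 9 thick limb and distal markers, 3 lower of 8 collecting duct (6 without both libraries numbered 3), 3 lower of 6 podocyte and 4 lower of 7 endothelial markers (7 without both), with none higher. With library totals these counts were 1 higher and 4 lower for thick limb and distal, 1 and 3 for collecting duct, 2 and 1 for podocyte and 0 and 1 for endothelial markers. With so few genes, the podocyte counts on library totals show nothing particular to that list. Calls over all tested genes also went from 41.1% to 62.5% when both libraries numbered 3 were left out. Neutrophil markers gave 4 higher of 4 tested, lymphocyte markers 7 of 8 (4 without both libraries numbered 3) and proliferation genes 8 of 8, with none lower.

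The genes most like each called member over the 6 libraries were found by Pearson's r of log2 CPM among 12140 genes with a mean FPKM of at least 1. For Sirt3 they were Ndrg2, Acp6 and Slc25a33, a mitochondrial pyrimidine nucleotide carrier, with r of at least 0.9996 and log2 fold changes of -1.43, -0.996 and -1.35. For Sirt4 they were Ddt, Ccs, the copper chaperone of superoxide dismutase, and Ndrg3, with r of at least 0.999. For Sirt5 they were Mpc1, a subunit of the mitochondrial pyruvate carrier, Uroc1 and Pex7, with r of at least 0.9993. The points share the 2 groups and the 6 libraries, and 1514 genes had r above 0.95 with Sirt3, 1596 with Sirt4 and 1187 with Sirt5, so such values are common here.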

How the data were processed

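Kidney RNA from 6 libraries (3 control, 3 Wnt1) was analysed. Per the labels' protocols, polyadenylated RNA was selected with oligo(dT) beads and sequenced on an Illumina instrument. The submitters' processing notes list RSEM, StringTie 1.3.1, HISAT2, Bowtie2 2.2.8, fastp 0.18.0 and the build mm10. What each tool did, which annotation was used and how strand was treated is not given in those notes. The authors deposited expected counts (estimated counts, 9.02% not whole, rounded here) and FPKM values, scaled by length and library total. Counts were tested in R 4.3.3 with edgeR 4.0.16 (filterByExpr, TMM, robust quasi-likelihood, two-sided, Benjamini-Hochberg); standard errors were derived from the F statistic. Alternatives used DESeq2 1.42.0 and limma 3.58.1. The procedure was tested on simulated data in which few genes changed, as many up as down. That simulation does not bear on the shift in composition between these groups. Fold changes from FPKM are on the log2(value + pseudocount) scale, which understates low genes. Gene positions, GC content and length come from GENCODE M21 (GRCm38, which mm10 names). The floor of 3 counts covers counting error only, while the standard errors and SDs include the spread between libraries.

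The members and the 19 other gene lists were chosen with earlier results of these data known. The text names all members and, from each list, up to 4 called genes with the smallest p. Others were picked after their values were seen (Nampt, Parp1, Ccar2, Idh2, Slc25a51 and Kap). Neighbouring genes were named by annotation, beside the 3 most similar genes for each called member. The GC offset and the covariate for the libraries numbered 3 were chosen after seeing the data. Replicate numbers follow the order of the records and pair nothing: control 1, 2 and 3 are the libraries titled C1, C3 and C6, and Wnt1 1, 2 and 3 those titled PW2, PW3 and PW5.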

Additional observations from a re-analysis of the deposited data

How the results depend on the processing

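Of 17 alternatives, Sirt3 kept its direction and call in 17, Sirt4 in 13 and Sirt5 in 8. The cause of each change was not tested. With library totals, 1 sirtuin was called higher and 1 lower, and the log2 fold changes were 0.065 for Sirt2, -0.42 for Sirt4, -0.048 for Sirt5, 0.785 for Sirt6 and 0.034 for Sirt7. With limma on log2(FPKM + 1), filtered or not, 1 was called higher and 1 lower, with 0.062 for Sirt2, -0.34 for Sirt4, -0.077 for Sirt5 and 0.626 for Sirt6; on log2(FPKM + 0.1), also with 1 higher and 1 lower, these were 0.063, -0.41, -0.082 and 0.753. DESeq2 and median-ratio factors called Sirt2 lower, at -0.387 and -0.384. Without both libraries numbered 3, 9096 genes were called (against 5936) and 5 sirtuins lower, adding Sirt2 (-0.389) and Sirt7 (-0.479). A covariate for these libraries gave 9115 genes and 5 sirtuins lower, again adding Sirt2 (-0.357) and Sirt7 (-0.392). A GC offset gave 5 lower and 1 higher, with -0.149 for Sirt1, -0.291 for Sirt2, 0.368 for Sirt6 and -0.38 for Sirt7; calls over all genes were then 3901 higher and 3804 lower.

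Leaving out 1 library at a time gave 2 to 5 sirtuins called lower (5 without Wnt1 replicate 3), and log2 fold changes of -0.114 to 0.27 for Sirt1, -0.433 to -0.223 for Sirt2, -0.503 to -0.386 for Sirt5, 0.214 to 0.483 for Sirt6 and -0.516 to -0.263 for Sirt7; each such library that changed a call or sign is named beside its gene in the report.

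No paired analysis was possible because the titles of the 2 groups share fewer than 2 numbers, and the replicate numbers 1 to 3 used here only follow the order of the records. Sirt4 (135 to 241 counts per library) and Sirt6 (149 to 288) had the fewest counts over the 6 libraries; the standard error was widest for Sirt1.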
